A study of Mus musculus with 28 samples.

Results

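The kidney tubule lineage transcription factors followed here are 9 of the 45706 genes measured, and their transcript levels were compared across 7 lines of mouse kidney epithelial cells. They are Pax2, Pax8, Lhx1, Emx2, Sall1, Tfap2b, Grhl2, Elf3 and Foxi1, and they were selected by gene symbol. Transcripts of 7 of the 9 were above 0 in all 28 libraries. Tfap2b and Foxi1 were listed at 0 in all 28.

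Kidney tubules come from the nephric duct and its outgrowth, the ureteric bud, which forms the collecting duct system, and from the nephron progenitors around the bud tips, which form the nephron. The paired-box factors Pax2 and Pax8 act together at the start of this lineage, and Lhx1, a LIM-homeodomain factor, is expressed downstream of them in the nephric duct and in early nephrons. Emx2, a homeodomain factor, is needed in the ureteric bud epithelium, and Sall1, a zinc-finger protein, is needed in the mesenchyme around it. Grhl2, a grainyhead-like factor, and Elf3, an ETS factor, control genes of polarised epithelia, while Tfap2b serves the distal nephron and Foxi1 specifies the acid-base transporting intercalated cells of the collecting duct.

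All cells were mIMCD-3, an inner medullary collecting duct line derived from a mouse carrying SV-40, unedited (wild type) and grown without an experimental treatment. RNA was taken 4 days after full confluency. The polyclonal group was the line as obtained from the supplier, WT5 was expanded from 1 cell sorted out of it, and subclones 1 to 5 were expanded from 1 sorted WT5 cell each, so that WT5 and each subclone are 1 clone each. There were 4 libraries per line, which the study describes as biological replicates in one place and as technical in another, so the p-values measure only the spread between these libraries. The comparisons ask how far a line grown from 1 cell differs from the mixed population, and how far its own subclones differ from it and from each other.

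Values are TPM, the abundance of a gene's transcripts per unit of length, scaled to the same total in each library. They keep no read number, so the depth is unknown and no counting error can be given. Polyclonal cells were read as 50-base single ends and monoclonal cells as 150-base paired ends at another time, so that line and sequencing run cannot be told apart in that comparison. Genes above 0 numbered 18681 to 19272 in polyclonal libraries, 16318 to 16536 in WT5 and 16270 to 17004 in the subclones, and mitochondrial transcripts took 5.02% to 10.4%, 4.21% to 5.30% and 5.60% to 10.2% of TPM. Libraries of the same line correlated with Pearson's r of 0.983 to 0.99 over genes, and 0 pairs were identical. In bulk RNA, fewer cells with a transcript and less transcript per cell cannot be told apart.

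The collecting duct label was checked on marker genes. The summed level of 10 principal cell markers was 31.2 to 33.8 TPM in polyclonal libraries, 10.5 to 11.1 TPM in WT5 and 8.85 to 23.1 TPM in the subclones, but Aqp2, the vasopressin-regulated water channel that defines these cells, was at 0 in every library. The 14 intercalated cell markers summed to 2.43 to 2.75 TPM in polyclonal libraries and to no more than 1.14 TPM elsewhere. Of 6 loop and distal tubule markers, Umod, the secreted protein uromodulin, had a mean of 0.0675 TPM in polyclonal cells, 3.38 TPM in WT5 and 11.6 TPM in subclone 5. Markers of proximal tubule summed to 4.28 to 11.5 TPM over the lines, fibroblast markers to 0.33 to 2.12 TPM, endothelial markers to 0 to 0.29 TPM and leukocyte markers to 1.52 to 4.68 TPM. The 4 podocyte markers summed to 39.3 to 68.9 TPM, mostly from Synpo and Podxl. What part these levels have in the results that follow was not tested.

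Pax8 was the most abundant member per transcript length in every line, with a mean above that of 94.3% to 96.6% of 21519 protein-coding genes. Lhx1 was the lowest of the detected members in polyclonal cells, above 48.2% of protein-coding genes there and above 59% of them in WT5. The plot of levels by library shows that the largest step among all members and lines was the low level of Lhx1 in polyclonal cells.

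**Figure D1:**
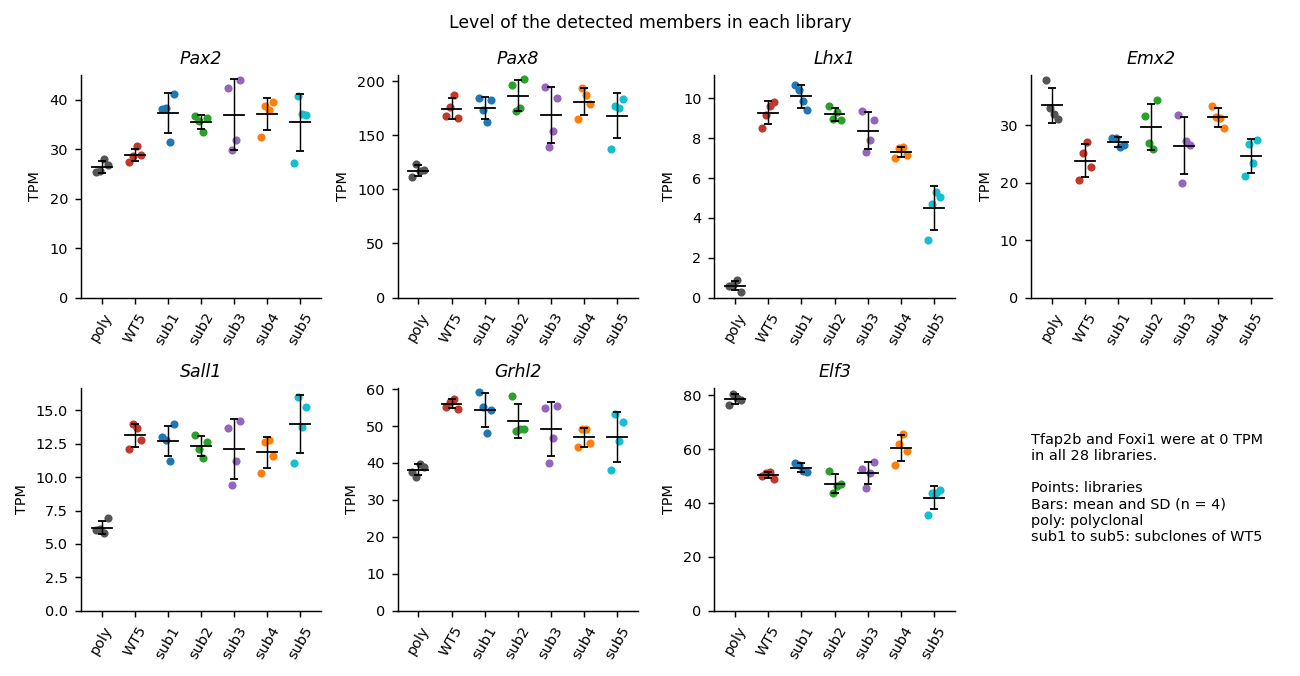
TPM of the 7 detected members (vertical axis, from 0) in each of the 28 libraries (points) of the 7 lines (horizontal axis), with the mean and SD of 4 libraries. Lhx1 was at 0.30 to 0.89 TPM in polyclonal cells and at 2.88 to 10.7 TPM in the subclones, while the libraries of lines next to each other in mean level overlapped for Pax2 and Emx2.

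Lhx1 lies on the minus strand at chr11:84518284-84525535 of GRCm38 (GENCODE M21). In polyclonal cells its level was 0.59, 0.61, 0.89 and 0.30 TPM, and in WT5 it was 8.51, 9.16, 9.64 and 9.83 TPM. The lowest WT5 library was thus far above the highest polyclonal library. The difference between WT5 and polyclonal cells was 4.06 on the log2 scale (SE 0.296, 4 libraries each), or 16.6-fold. As a z-score (log2 TPM scaled within each library) it was 1.23, with an adjusted p of 1.23e-05 by limma with Benjamini-Hochberg adjustment over 13723 genes.

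Among the subclones the level of Lhx1 was 10.7, 10.4, 9.86 and 9.42 TPM in subclone 1 and 9.62, 8.95, 9.30 and 8.93 TPM in subclone 2. Subclone 3 had 9.37, 7.32, 7.90 and 8.93 TPM, and subclone 4 had 7.01, 7.53, 7.55 and 7.15 TPM. Subclone 5 was lowest with 2.88, 4.72, 5.31 and 5.06 TPM. By mean level the order was subclone 1, WT5, subclone 2, subclone 3, subclone 4, subclone 5 and polyclonal cells. Each of the first 5 overlapped its neighbour in this order, and subclone 5 lay apart from the lines above it and from the polyclonal cells below it.

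A gene for a long non-coding RNA, Lhx1os, starts on the opposite strand 125 bases upstream of the annotated start of Lhx1 and runs away from it without overlap. Both genes therefore start within the stretch printed here, which is shown because the levels of both are compared. It is chr11:84525535-84525784 of GRCm38 (RefSeq promoter table), 5′ to 3′ on the minus strand as read towards Lhx1, with the bases inside Lhx1os in capitals.
Lhx1: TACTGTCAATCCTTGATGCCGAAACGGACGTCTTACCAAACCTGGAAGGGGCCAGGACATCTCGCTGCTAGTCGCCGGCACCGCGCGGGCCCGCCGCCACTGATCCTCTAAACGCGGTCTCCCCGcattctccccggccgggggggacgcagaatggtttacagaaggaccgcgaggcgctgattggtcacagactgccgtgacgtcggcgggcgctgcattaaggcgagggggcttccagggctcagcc
This stretch holds 26 CpG dinucleotides in 250 bases, more than 90.4% of 32851 RefSeq promoter windows of the same length, of which the median holds 6.

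Lhx1os was at 0.43, 0.81, 0.09 and 0 TPM in polyclonal cells and at 3.56, 3.31, 2.97 and 2.13 TPM in WT5. The groups did not overlap, and the log2 difference, taken with a pseudocount of 0.1 over all genes because of the 0, was 3.30 (SE 0.666, adjusted p = 0.0034 on that scale). In subclone 5 it was at 1.61, 1.36, 1.14 and 1.27 TPM, below all 4 WT5 libraries, with a log2 difference to WT5 of -1.08 (SE 0.178, adjusted p = 0.00806). Means of the other subclones were 2.55 to 3.02 TPM. Against the mean of the other 4 subclones, Lhx1os in subclone 5 differed by -1.01 (SE 0.176, adjusted p = 0.000826).

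**Figure D2:**
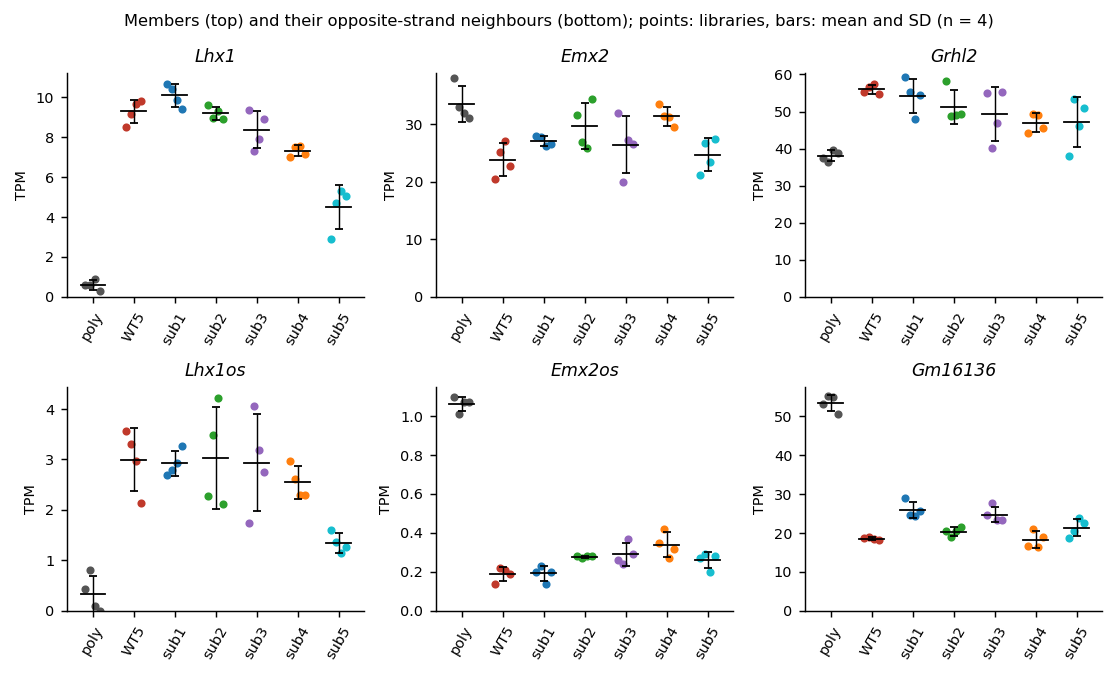
TPM of Lhx1, Emx2 and Grhl2 (top) and of the gene that starts on the opposite strand near each start (bottom) in each library of the 7 lines, with mean and SD of 4. Lhx1os had its lowest means in polyclonal cells and subclone 5, as Lhx1 did, while Gm16136 was higher in polyclonal cells (50.7 to 55.1 TPM) than in WT5 (18.1 to 18.9 TPM) and Grhl2 was lower there.

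Of the paired-box factors, Pax8 (chr2:24420560-24475599, minus strand) was at 112, 123, 117 and 118 TPM in polyclonal cells and at 168, 176, 187 and 166 TPM in WT5. Every WT5 library was above every polyclonal one. The log2 difference was 0.57 (SE 0.0543) and the z-score difference 0.123, with an adjusted p of 0.00029. Its mean in the subclones was 168 to 186 TPM (n = 4 each), with all 5 above polyclonal cells and none apart from WT5.

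Pax2 (chr19:44756045-44837871, plus strand) was at 25.4, 25.6, 28.1 and 26.8 TPM in polyclonal cells and at 27.5, 28.6, 30.6 and 28.8 TPM in WT5. These groups overlapped. The log2 difference was 0.12 (SE 0.0519), under the median of 0.24 over all genes tested, and the z-score difference was -0.03 (SE 0.0131, adjusted p = 0.0809), so the sign depended on the scale.

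Within a library, the TPM of Pax8 divided by that of Pax2 was 4.44 ± 0.277 (SD, n = 4) in polyclonal cells and 6.04 ± 0.174 in WT5. In the 20 subclone libraries it was 4.84 ± 0.346, with a range of 4.21 to 5.55 that lay below the lowest WT5 library, at 5.78. This pair was chosen after its values were seen, and the ratio was not tested. WT5 and the subclones come from separate tables, so a difference between tables cannot be told apart from one between these lines.

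Sall1 (chr8:89027235-89044162, minus strand) was at 6.04, 6.09, 5.79 and 6.92 TPM in polyclonal cells and at 12.1, 14.0, 13.6 and 12.8 TPM in WT5, with no overlap. Its log2 difference was 1.08 (SE 0.0724), the second largest among the members, with a z-score difference of 0.276 and an adjusted p of 1.65e-05. Subclone means were 11.8 to 14.0 TPM, and the libraries of each subclone overlapped WT5.

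Emx2 (chr19:59458372-59465357, plus strand) was at 37.97, 33.0, 32.0 and 31.1 TPM in polyclonal cells and at 20.4, 25.2, 27.1 and 22.8 TPM in WT5. It was thus lower in every WT5 library, by a log2 difference of -0.49 (SE 0.103) and a z-score difference of -0.228 (adjusted p = 0.000298). The antisense gene Emx2os, which overlaps the start of Emx2 by 264 bases, was at 1.06 ± 0.0378 TPM in polyclonal cells and 0.19 ± 0.0356 TPM in WT5 (SD, n = 4), a log2 difference of -2.01 (SE 0.0957, adjusted p = 1.15e-06, pseudocount 0.1). Whether the libraries kept strand is not given in the sources used here, so reads from the overlap cannot be told apart.

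Of the epithelial factors, Grhl2 (chr15:37233036-37363569, plus strand) was at 37.6, 36.3, 39.7 and 38.8 TPM in polyclonal cells and at 55.2, 56.5, 57.4 and 54.7 TPM in WT5. The groups were well apart, with a log2 difference of 0.55 (SE 0.0431), a z-score difference of 0.112 and an adjusted p of 6.45e-05. Gm16136, an antisense gene that overlaps the Grhl2 start by 274 bases, moved the other way, from 53.5 ± 2.03 TPM in polyclonal cells to 18.6 ± 0.356 TPM in WT5. Its log2 difference was -1.52 (SE 0.0491, adjusted p = 1.41e-07, pseudocount 0.1), and its mean in the subclones was 18.3 to 26.0 TPM. Reads from this overlap cannot be told apart either, and read length differed between polyclonal cells and WT5.

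Elf3 (chr1:135253575-135258568, minus strand) was at 76.4, 80.5, 79.1 and 78.1 TPM in polyclonal cells and at 49.96, 51.3, 51.5 and 48.8 TPM in WT5. It was lower in WT5 by a log2 difference of -0.64 (SE 0.0385), with a z-score difference of -0.272 and an adjusted p of 5.58e-07, the lowest among the members. The ratio of Elf3 to Grhl2 within a library, also chosen after its values were seen, was 2.06 ± 0.103 in polyclonal cells, 0.90 ± 0.00728 in WT5 and 1.03 ± 0.151 in the 20 subclone libraries. In subclone 4 it was 1.28 ± 0.0483 (n = 4).

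Tfap2b (chr1:19208914-19238576) and Foxi1 (chr11:34204338-34208089) were listed at 0 in all libraries and could not be tested. The remaining annotated genes that overlap a member, which are Gm20395, Mir6405 and 1700039E22Rik at Pax2, Gm13415 at Pax8, Gm16137 and Gm16138 at Grhl2 and Gm26642 at Elf3, had means of at most 0.37 TPM in every line. No stretch of 50 bases in the longest transcript of a detected member was shared with another gene.

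RefSeq promoter windows were found for 8 of the 9 members, in 12 windows because Pax2 and Sall1 have several starts. CpG counts in the 250 upstream bases were 24 for Emx2, 13 to 30 for Sall1 and 5 to 25 for Pax2, against 8 for Elf3, 6 for Pax8, 5 for Tfap2b and 4 for Foxi1. Of the 12 windows, 8 held more than the median promoter. TATAAA was in none of them on either strand, and 12.4% of all promoters hold it.

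With the study's thresholds, an adjusted p below 0.01 and a z-score difference above 1, Lhx1 was the 1 member of 7 tested that was differentially expressed between WT5 and polyclonal cells, against 5.43% of all genes tested (2.31% higher and 3.12% lower). These shares come from the limma fit and gene filter used here. The study used an unequal-variance test and reported more genes higher than lower in WT5. A z-score difference of 1 corresponds to 8.56-fold here. With the adjusted p alone, 6 of 7 members passed, of which 4 were higher (Pax8, Lhx1, Sall1 and Grhl2) and 2 lower (Emx2 and Elf3) in WT5, but 65.5% of all genes passed as well, 34.5% higher and 30.9% lower. Over the 7 members the log2 difference had a median of 0.55, against 0.24 over all genes. With a log2 difference above 1 in place of the z-score, Lhx1 and Sall1 passed (25.5% of all genes).

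**Figure D3:**
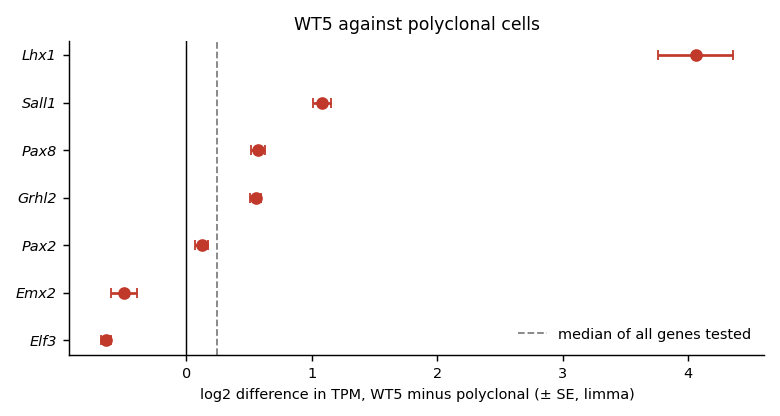
Log2 difference in TPM of the 7 detected members, WT5 minus polyclonal cells (horizontal axis), with the SE from limma, 4 libraries each. Lhx1 stands at 4.06, Sall1 at 1.08, and Emx2 and Elf3 lie below 0, with the median of all genes at 0.24 (dashed).

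Between the subclones and WT5 every detected member but Pax2 had smaller log2 differences than between WT5 and polyclonal cells. The plot of subclones against their parent shows their sizes. Pax2 differed more, by 0.28 to 0.36 against 0.12, and Emx2 in subclone 4 differed by 0.40 against -0.49. Of all genes, 5.43% passed both thresholds between WT5 and polyclonal cells, where read length also differed, and fewer did here. WT5 and the subclones come from separate tables, so a shift shared by all 5 subclones and a difference between tables cannot be told apart. No member was differentially expressed by both thresholds in any of the 5 comparisons with limma or the unequal-variance test, where 0.152%, 0.144%, 0.173%, 0.202% and 0.173% of 13860 genes were in subclones 1 to 5. At an unadjusted p below 0.05, 3, 3, 3, 6 and 3 of the 7 members passed in subclones 1 to 5, against 51.0%, 51.5%, 46.2%, 59.0% and 49.1% of all genes.

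By adjusted p alone, 1, 2, 0, 4 and 2 members passed in these lines, against 26.3%, 26.0%, 19.5%, 37.3% and 21.9% of all genes. Lhx1 in subclone 5 differed most from WT5, by -1.08 on the log2 scale (SE 0.187) and -0.343 as a z-score (adjusted p = 0.00137). It was the only one past an adjusted p of 0.01 with a log2 difference above 1, as 3.17%, 2.69%, 3.61%, 5.14% and 3.45% of genes were in subclones 1 to 5. That call was not stable. With 1 library left out at a time, the log2 difference ran from -1.18 to -0.88 and its adjusted p by limma from 0.000395 to 0.0145. In subclone 4 Lhx1 differed by -0.34 (SE 0.0554, adjusted p = 0.000688), with no overlap between the libraries, but with all 28 libraries in one fit its adjusted p was 0.121. The unequal-variance test put the adjusted p for subclone 5 at 0.0251.

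**Figure D4:**
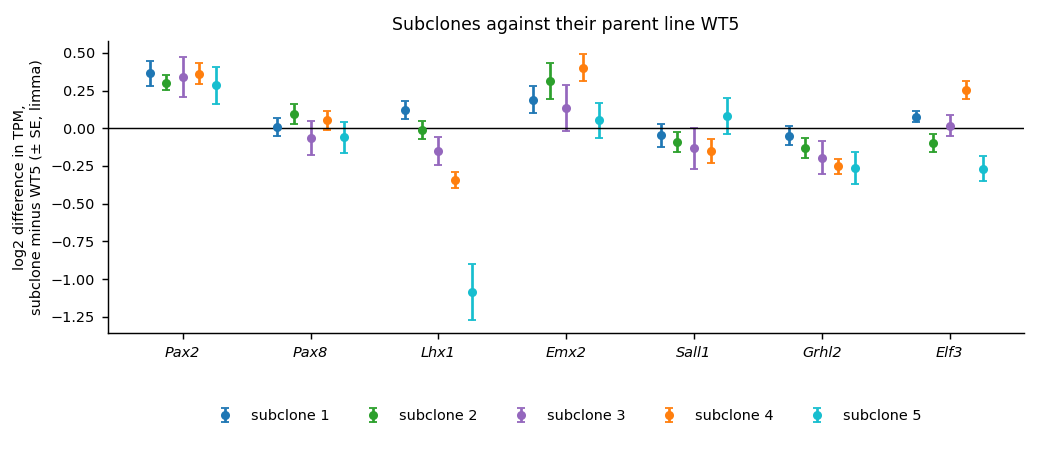
Log2 difference in TPM of each detected member (horizontal axis) between each of the 5 subclones and WT5 (vertical axis), with the SE from limma, 4 libraries each. All 5 points of Pax2 lie above 0, and Lhx1 in subclone 5 stands lowest at -1.08.

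Pax2 was above WT5 in all 5 subclones. It was at 38.2, 38.4, 31.5 and 41.2 TPM in subclone 1, at 36.8, 35.7, 33.5 and 36.3 TPM in subclone 2 and at 32.4, 38.7, 37.9 and 39.6 TPM in subclone 4. None of these libraries overlapped WT5. In subclone 3 it was at 42.4, 29.9, 31.9 and 43.9 TPM and in subclone 5 at 27.2, 40.7, 37.1 and 37.0 TPM, with 1 library of each within or below the range of WT5. Log2 differences were 0.28 to 0.36, and the adjusted p was 0.00285, 0.000566, 0.0128, 0.00093 and 0.00826 in subclones 1 to 5. All 5 comparisons use the same 4 WT5 libraries, so they are not independent of each other. The limit given above for a shift shared by all 5 subclones applies to Pax2.

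With fewer libraries some of these adjusted p-values rose above 0.01 while the size of the difference changed little. In subclone 1 the adjusted p rose to between 0.0101 and 0.0103 when any of 4 of the 8 libraries was left out (z-score difference 0.13, against 0.135 with all), and in subclone 5 it rose to between 0.0164 and 0.0263 for any of 7 (0.112 to 0.138, against 0.13 with all). The differences in subclone 5 and subclone 1 had adjusted p-values of 0.109 and 0.0112 on the log2 scale.

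Emx2 in subclone 4 was at 33.4, 31.4, 31.3 and 29.5 TPM, above all WT5 libraries, with a log2 difference of 0.40 (SE 0.0904, adjusted p = 0.0027). Pax8 passed in subclone 2 with a log2 difference of 0.09 (SE 0.069, adjusted p = 0.00946 for the z-scores and 0.309 for the log2 difference), and its libraries, at 196, 173, 176 and 202 TPM, overlapped WT5. Its adjusted p lay between 0.0105 and 0.0286 when any 1 of the 8 libraries was left out. Elf3 in subclone 4 differed by 0.25 (SE 0.0614, adjusted p = 0.00168), without overlap. Sall1 and Grhl2 passed in no subclone, with log2 differences of -0.15 to 0.08 and -0.26 to -0.05, though on the log2 scale Grhl2 in subclone 4 had an adjusted p of 0.00308. By the unequal-variance test the adjusted p was 0.0108 to 0.0497 for Pax2 in subclones 1, 4 and 5 and for Emx2 and Elf3 in subclone 4.

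Among the 5 subclones, which share 1 table, Lhx1 and Elf3 were the 2 of 7 members that differed by adjusted p in a test across all lines (24.6% of 14031 genes). No member reached a z-score difference of 1 between the highest and the lowest subclone by limma, which 0.613% of genes did, while Lhx1 exceeded 1 on the log2 scale, as 5.4% of genes did. At an unadjusted p below 0.05 the count was 4 of 7 (46.7% of genes). Lhx1 spanned 1.21 on the log2 scale from subclone 5 to subclone 1 (adjusted p = 6.99e-07), and Elf3 spanned 0.52 (adjusted p = 1.13e-05). Pax2 spanned 0.08 (adjusted p = 0.968).

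Against the mean of the other 4 subclones, Lhx1 in subclone 5 differed by -0.99 (SE 0.11, adjusted p = 2.39e-07), in subclone 1 by 0.52 (SE 0.11, adjusted p = 0.000548) and in subclone 2 by 0.35 (SE 0.11, adjusted p = 0.00763). By adjusted p alone, 1, 1, 0, 1 and 2 members passed in these 5 comparisons, where 4.36%, 5.95%, 4.85%, 18.4% and 14.5% of genes did. The difference in subclone 2 had an adjusted p of 0.0102 to 0.0339 when any of 15 of the 20 libraries was left out. No member passed both thresholds in these 5 comparisons (0.0713%, 0.057%, 0.0356%, 0.114% and 0.057% of genes) by limma or the unequal-variance test. At an unadjusted p below 0.05 the counts were 1, 2, 1, 2 and 4, against 21.7%, 23.9%, 18.4%, 38.4% and 34.1% of genes.

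Elf3 was at 54.2, 61.9, 65.6 and 59.2 TPM in subclone 4 and at 35.7, 43.7, 43.7 and 45.0 TPM in subclone 5. The rest of the subclones lay between, with means of 47.2 to 53.1 TPM. Subclones 1 and 3 overlapped subclone 4 and not subclone 5, and subclone 2 overlapped subclone 5 and not subclone 4. Against the mean of the other 4, subclone 4 differed by 0.32 (SE 0.0642, adjusted p = 1.17e-05) and subclone 5 by -0.33 (SE 0.0642, adjusted p = 5.04e-05). By the unequal-variance test, the adjusted p was 0.0195 for Elf3 in subclone 4 and 0.0192, 0.0813 and 0.0438 for Lhx1 in subclones 1, 2 and 5.

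In 5 of the 28 libraries all 7 detected members were below the median of the other 3 libraries of their line. The ratio to that value, as a median over the members, was 0.73 in replicate 2 of subclone 3 and 0.746 in replicate 1 of subclone 5. It was 0.889 to 0.957 in the others. Mitochondrial transcripts took 7.61% and 8.50% of TPM in the lowest 2, within the range of their lines. Without these 2, an alternative chosen after seeing the data, Lhx1 in subclone 5 differed from WT5 by -0.88 on the log2 scale (adjusted p = 0.000395) and from the other subclones by -0.80 (adjusted p = 1.14e-07). Elf3 in subclone 5 differed from WT5 by -0.27 with all libraries (adjusted p = 0.0406 on the log2 scale) and by -0.19 without them (adjusted p = 0.00907).

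Over the 20 subclone libraries, the genes whose log2 TPM followed Lhx1 most closely among 12575 were Cdkn1a, the cell cycle inhibitor p21, with Pearson's r of 0.963, and St3gal1, a sialyltransferase, with 0.953. Cdkn1a fell from a mean of 256 TPM in subclone 1 to 172 TPM in subclone 5, and St3gal1 from 6.53 to 3.70 TPM. For Elf3 they were Rps6ka5, a kinase of histone H3, with 0.953, and Cpsf3, the nuclease of pre-mRNA cleavage, with 0.950. The mean of Cpsf3 was 68.4 TPM in subclone 4 against 44.5 TPM in subclone 5. The points are 5 lines with 4 libraries each, including those 2 libraries of subclones 3 and 5, so these values are descriptive only.

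The close relatives of the members formed a list of 31 genes, of which 9 could be tested between WT5 and polyclonal cells. By adjusted p, 2 rose and 4 fell, where 34.5% of all genes rose and 30.9% fell, with a median log2 difference of 0.14 against 0.24 over all genes, and a median z-score difference of the opposite sign, -0.02, against 0.01. Ehf, an ETS factor of epithelia related to Elf3, was at 155 ± 10.1 TPM in polyclonal cells and 39.1 ± 1.43 TPM in WT5. Pax9 differed by -1.96, Tfap2a by -1.04 and Grhl1 by 0.88 on the log2 scale. Among the subclones, Lhx2, a LIM-homeodomain relative of Lhx1, passed both thresholds, with means of 2.63 TPM in subclone 5, 1.71 TPM in subclone 1 and 0.135 TPM in subclone 4.

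**Figure D5:**
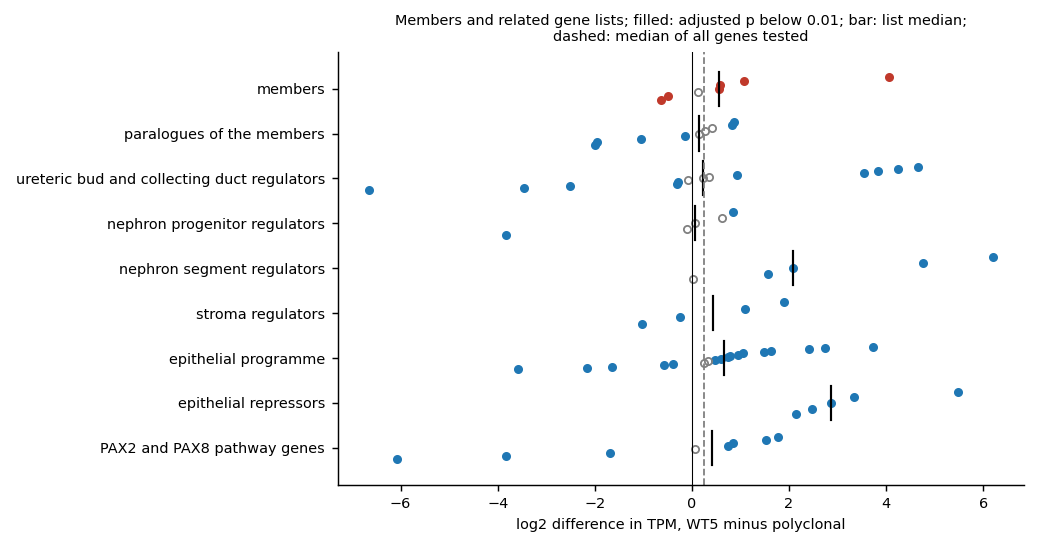
Log2 difference in TPM, WT5 minus polyclonal cells (horizontal axis), of the tested genes of each list (points, filled where the adjusted p is below 0.01), with the list median (bar) and the median of all genes, 0.24 (dashed). The 5 tested epithelial repressors lie above 2, whereas the ureteric bud and collecting duct regulators run from -6.65 to 4.66.

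Other regulators of the ureteric bud and collecting duct went both ways. Of 16 such genes 13 were tested, of which 5 rose and 5 fell by adjusted p (34.5% and 30.9% of all genes) and 4 and 2 passed both thresholds (2.31% and 3.12%), with a median log2 difference of 0.24. Gata3, a zinc-finger factor of the nephric duct, was at 4.08 ± 1.10 TPM in polyclonal cells and 0.04 ± 0.00816 TPM in WT5, a log2 difference of -6.65 (SE 0.237). The size of this difference is imprecise. Its WT5 libraries, at 0.03 to 0.05 TPM, lie near the lowest value above 0, which is 0.01 TPM. Sox9, a factor of bud tips, rose from 0.393 ± 0.102 to 9.60 ± 0.199 TPM. Etv4, an ETS factor downstream of Ret, differed by 4.24, and Nr3c2, the mineralocorticoid receptor, by 3.83.

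Of 11 nephron progenitor regulators 5 were tested, of which 1 rose and 1 fell by adjusted p, with a median of 0.06 on the log2 scale and -0.06 as a z-score. Eya1, a transcriptional co-activator, was at 34.1 ± 1.89 TPM in polyclonal cells and 2.41 ± 0.201 TPM in WT5. Of 13 nephron segment regulators 5 were tested, of which 4 rose and 0 fell, with a median of 2.08, where 34.5% of all genes rose and 30.9% fell. Irx1 went from 0.145 ± 0.0661 to 9.86 ± 0.529 TPM, and Nr1h4, Irx3 and Foxc1 differed by 4.76, 2.08 and 1.56. Of 6 stroma regulators 4 were tested, of which 2 rose, Nfatc4 with a log2 difference of 1.90 and Foxd1 with 1.10, and 2 fell, Meis2 with -1.02 and Meis1 with -0.25.

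Genes of the epithelial programme, which includes junction proteins and splicing factors, were all tested. Of 18, 11 rose and 5 fell (34.5% and 30.9% of all genes), with a median log2 difference of 0.67. The tight junction gene Cldn3 rose from 18.6 ± 2.20 to 247 ± 5.58 TPM and Cldn4 from 165 ± 16.7 to 1089 ± 36.9 TPM, while Rab25, a trafficking GTPase, fell from 207 ± 11.6 to 17.4 ± 1.12 TPM. All 5 tested of 6 epithelial repressors rose as well, against 34.5% of all genes, with Twist2 going from 0.695 ± 0.213 to 30.1 ± 2.06 TPM and Zeb1 from 0.075 ± 0.0635 to 0.625 ± 0.156 TPM.

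Of 14 genes in the pathway of Pax2 and Pax8, 8 were tested, and 4 rose while 3 fell (34.5% and 30.9% of all genes). Gdnf, the ligand of Ret, was at 1.58 ± 0.409 TPM in polyclonal cells and 0.035 ± 0.0379 TPM in WT5, and Ret itself was at 0 in polyclonal cells with a mean of 0.0075 TPM in WT5. Wnt4 differed by 1.78 on the log2 scale, and Npnt, the integrin ligand nephronectin, by -1.68.

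Among the subclones the lists differed as follows by adjusted p. Of the relatives tested 5 of 11 passed, as did 8 of 13 ureteric bud regulators, 5 of 6 nephron progenitor regulators and 4 of 6 segment regulators, against 24.6% of all genes. Of the stroma regulators 1 of 4 passed, of the epithelial repressors 2 of 4 and of the pathway genes of Pax2 and Pax8 5 of 9. Gata2 was at a mean of 1.42 TPM in subclone 1 and 0.0325 TPM in subclone 4, and Osr1, an early regulator of kidney mesoderm, was at 3.74 TPM in subclone 4 and 0.293 TPM in subclone 2. Of the epithelial programme 15 of 18 passed, and Esrp1, an epithelial splicing factor, had the largest span, 1.26 on the log2 scale.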

How the data were processed

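Total RNA of 28 mIMCD-3 libraries was sequenced, 4 per line. The deposited values are TPM, which the authors made with STAR 2.7.3a (alignment to GRCm38) and RSEM 1.3.1 (quantification of genes of Ensembl release 81). The submitters' processing notes also name CASAVA 1.8. The 2 tables, with polyclonal cells and WT5 in one and the subclones in the other, were joined by gene identifier. TPM keeps no depth, so no method for read counts was used and precision rests on the 4 libraries.

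Here, each library's log2(TPM) values were turned into z-scores over the genes above 0 in all libraries compared (13723, 13860 and 14031 genes), and lines were compared with limma 3.58.1 in R 4.3.3, two-sided, with Benjamini-Hochberg adjustment over all genes tested. Differential expression meant a z-score difference of more than 1 in either direction with an adjusted p below 0.01. Log2 differences and their SE come from the same fit without z-scores, and adjusted p-values are those of the z-scores unless another scale is named. The unequal-variance test named in the study's methods was an alternative, as were pseudocounts of 0.1 and 1, a mean TPM of at least 1, no filter, the log2 scale, an adjusted p below 0.05, no threshold on size, blocking by replicate number, one fit of all 28 libraries and leaving out each library. The fits were also run on simulated data with changes larger than most differences reported here, so smaller differences were not tested that way. Opposite-strand neighbours were fitted without a filter, with a pseudocount of 0.1.

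Named were all members, up to 4 genes per list by the largest log2 difference among those with a mean TPM of at least 1 in a line and an adjusted p below 0.01, the 2 genes most like each member that differed among subclones, and annotated genes overlapping a member or starting within 5000 bases of its start. Aqp2 and Ret were named outside this rule, after their values were seen. One gene that the rule includes is not reported here. The members and lists were chosen with earlier results of these data known. All columns of values were used. Python 3.11.15 with pandas 2.3.3 and matplotlib 3.10.9 prepared tables and figures.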

Additional observations from a re-analysis of the deposited data

Results flagged for a closer look

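Within lines of 4 libraries, 1 library stood far from the rest for 2 of the 49 combinations of member and line examined, of which chance gives about 1 in 20. Grhl2 was at 58.23 TPM in replicate 1 of subclone 2, where the other 3 libraries were at 48.7 to 49.3 TPM. Elf3 was at 35.72 TPM in replicate 1 of subclone 5, where the other 3 libraries were at 43.7 to 45.0 TPM.

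Subclones differed from each other for Lhx1 and Elf3 by the test of each subclone against the mean of the other 4 with limma. On the log2 scale these differences were -0.99 for Lhx1 in subclone 5, 0.52 in subclone 1 and 0.35 in subclone 2. For Elf3 they were 0.32 in subclone 4 and -0.33 in subclone 5.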

How the results depend on the processing

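Between WT5 and polyclonal cells 1 of 7 members passed both thresholds, 2 on the log2 scale and 6 with no threshold on size. Of all genes 5.43%, 25.5% and 65.5% did. Over the 5 comparisons with WT5 the count was 0, 1 on the log2 scale and 9 with no threshold on size. In each comparison 0.144% to 0.202%, 2.69% to 5.14% and 19.5% to 37.3% of all genes passed. Across the subclones the count was 0, 1 and 2 (0.613%, 5.4% and 24.6% of all genes). For each subclone against the other 4 it was 0, and 5 with no threshold on size. In each of those comparisons 0.0356% to 0.114% and 4.36% to 18.4% of all genes passed. With each library left out, the counts with the z-score threshold were 1 to 1 for WT5 against polyclonal cells and 0 to 0 in the others. The log2 count of 1 against WT5 was not kept, since Lhx1 in subclone 5 then differed by as little as -0.88. The difference in Pax2 between WT5 and polyclonal cells reversed from -0.0285 as a z-score to 0.0293 with no filter and a pseudocount of 0.1 and to 0.124 on the log2 scale. Of 610 values for 23 differences of single members, 545 kept their direction and their side of the threshold, 63 no longer passed and 2 reversed. For a subclone against WT5, leaving out a library of another subclone could not change the value. Part of the 545 was therefore fixed in advance, and their share overstates how stable the results were. The most affected were Lhx1 in subclone 2 against the other subclones (20 settings), Pax8 in subclone 2 (14) and Pax2 in subclones 5 (11) and 1 (7). The replicate number did not pair the libraries, since 14 of 64 same-numbered pairs had correlated deviations over 0.1 and 15 correlated best with their own number. With the replicate number as a block the counts were 1, 0, 0 and 0, and the adjusted p was 0.0248 for Pax2 in subclone 1, 0.0159 for Emx2 in subclone 4 and 0.0584 for Pax8 in subclone 2. Why these values moved was not tested. The depth is unknown, so low levels have no counting error. Such levels are those of Lhx1 and Lhx1os in polyclonal cells, Gata3 and Gdnf in WT5 and Gata2 in subclone 4.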
